A study of Mus musculus with 42 samples.

Results

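Dual-specificity MAP kinase phosphatases are enzymes that remove phosphate from both the threonine and the tyrosine of an activated MAP kinase. The genes that encode them and are described here were measured in bone-marrow-derived macrophages (BMDM). They are Dusp1, Dusp2, Dusp3, Dusp4, Dusp5, Dusp6, Dusp7, Dusp10 and Dusp16. They were chosen as the rows whose Ensembl identifier maps to these symbols, 9 of 37310 genes in the table, and all 9 passed the filter on low counts. After 2 h of bacterial lipopolysaccharide (LPS), Dusp1, Dusp2, Dusp4, Dusp5 and Dusp16 rose, Dusp6 and Dusp7 fell, and Dusp3 and Dusp10 did not pass the test. After 24 h of LPS none of the 9 genes passed as higher, and Dusp3 and Dusp7 were lower than in Control.

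The 42 libraries were made from cultured BMDM of mice carrying floxed Irf5 and the myeloid LysM-Cre driver, labelled KO, and of wild-type mice, labelled WT. Within each label, cells were sampled untreated (Control) at 0, 2 or 24 h, and after 2 or 24 h of palmitate or of LPS, which gives 14 groups of 3 libraries. The LysM promoter is active in granulocytes as well as in macrophages. The labels give no age for these mice, and how far Irf5 was deleted is not given in the sources used here. Library numbers below follow the order of columns and only name a library.

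MAP kinases relay signals from surface receptors to the nucleus in 3 main branches, named ERK, JNK and p38. In macrophages LPS engages TLR4 and activates all of these branches within minutes, and the phosphatases end that activity. Dusp1, Dusp2, Dusp4 and Dusp5 form the nuclear group, known as immediate or early response genes. Dusp6 and Dusp7 belong to the cytoplasmic group with a preference for ERK, and Dusp10 and Dusp16 to those that act mainly on JNK and p38. Dusp3 is a small atypical member without the domain that docks on a MAP kinase.

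The total count of a library lay between 2848793 and 7743442, so that 3 counts stood for 0.387 to 1.05 CPM, the count scaled to library size. Irf5 did not check the labels: its level ranged from 209.3 to 388.4 CPM in the 21 libraries labelled WT and from 266.7 to 430.0 CPM in the 21 labelled KO, and its mean was higher in KO in all 7 conditions (304.3 against 220.2 CPM at Control 0 h). Which exons the deletion removes is not given in the sources used here, so reads from the remaining exons cannot be told apart from an intact gene. All 7 macrophage markers were detected. Their sums were lower in KO without overlap, at 10100 to 14100 CPM against 14300 to 16600 CPM in WT for Control, 9640 to 10900 against 12700 to 17200 CPM for palmitate and 10300 to 13500 against 13600 to 23300 CPM for LPS. The largest of the 7 by counts was Lyz2, at 4680 to 14600 CPM in a library, the gene that carries the LysM-Cre allele of the KO mice. The part of Lyz2 in the lower sums was not tested. Among other cell types, markers of T or NK cells stayed at or under 2.05 CPM and erythroid markers at or under 0.518 CPM when summed. Granulocyte precursor markers summed to 20.7 to 65.9 CPM in WT Control and 71.3 to 219 CPM in KO Control, and fibroblast markers to 0.529 to 58.7 CPM and 39.5 to 133 CPM, with 5 libraries over 100 CPM, all labelled KO. Each of these sums rested on part of its list. Lcn2, Ltf, S100a9, Ngp and S100a8 reached 420, 72.1, 60.1, 54.6 and 21.3 CPM, while Elane, Prtn3, Ctsg, Camp and Mpo stayed at or under 8.34 CPM. Col1a1, Col1a2 and Col3a1 reached 195, 90.3 and 25 CPM, while Dcn and Pdgfra stayed at or under 1.01 CPM. Dusp10 was counted thinly, with 1 to 23 counts in a library and 5 libraries at or under 3 counts.

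The genes lie on 9 chromosomes of the mouse build GRCm38 (mm10). Dusp1 (ENSMUSG00000024190) occupies chr17:26505590-26562128 on the minus strand, Dusp2 (ENSMUSG00000027368) chr2:127336159-127338376 on the plus strand and Dusp3 (ENSMUSG00000003518) chr11:101971143-101987013 on the minus strand. Dusp4 (ENSMUSG00000031530) occupies chr8:34807297-34819894, Dusp5 (ENSMUSG00000034765) chr19:53529109-53542431 and Dusp6 (ENSMUSG00000019960) chr10:99263231-99267489, each on the plus strand. Dusp7 (ENSMUSG00000053716) occupies chr9:106368632-106375724 and Dusp10 (ENSMUSG00000039384) chr1:184013302-184075636 on the plus strand, and Dusp16 (ENSMUSG00000030203) chr6:134715468-134792625 on the minus strand. Exons of Dusp3 overlap those of an antisense gene, Gm20659, over 604 bases, and exons of Dusp5 those of AC137853.2 over 547 bases. The strand setting of the counting is not given in the sources used here, so reads from these stretches cannot be told apart.

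Promoters are shown for Dusp1, Dusp2, Dusp5 and Dusp16, which rose at 2 h of LPS, and for Dusp6, which fell, so that their letters can be compared. Of the 9 genes, 8 were matched to a promoter in the RefSeq table used here (GRCm38.p6), and Dusp4 was not matched. Each sequence is on the strand of its gene, with bases annotated as an exon of that gene left out, and that of Dusp1 lies inside the gene's annotated span, which includes a longer transcript: chr17:26508520-26508722 (minus strand) for Dusp1, chr2:127335909-127336158 (plus strand) for Dusp2, chr19:53528895-53529108 (plus strand) for Dusp5, chr6:134792629-134792878 (minus strand) for Dusp16 and chr10:99262981-99263230 (plus strand) for Dusp6. Capitals mark the matches to the motifs searched.
Dusp1: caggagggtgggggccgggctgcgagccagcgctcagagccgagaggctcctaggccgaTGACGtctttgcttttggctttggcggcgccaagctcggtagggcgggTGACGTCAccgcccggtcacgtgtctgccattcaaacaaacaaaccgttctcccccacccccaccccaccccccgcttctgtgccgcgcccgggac
Dusp2: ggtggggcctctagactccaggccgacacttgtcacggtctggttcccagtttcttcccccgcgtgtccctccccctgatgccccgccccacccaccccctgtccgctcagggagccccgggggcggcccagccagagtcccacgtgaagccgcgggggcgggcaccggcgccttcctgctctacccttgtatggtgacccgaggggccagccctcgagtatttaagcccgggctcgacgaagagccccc
Dusp5: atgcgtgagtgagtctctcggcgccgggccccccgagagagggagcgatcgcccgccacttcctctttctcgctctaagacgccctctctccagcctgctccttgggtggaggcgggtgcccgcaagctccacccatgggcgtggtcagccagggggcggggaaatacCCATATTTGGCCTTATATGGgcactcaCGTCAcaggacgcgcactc
Dusp16: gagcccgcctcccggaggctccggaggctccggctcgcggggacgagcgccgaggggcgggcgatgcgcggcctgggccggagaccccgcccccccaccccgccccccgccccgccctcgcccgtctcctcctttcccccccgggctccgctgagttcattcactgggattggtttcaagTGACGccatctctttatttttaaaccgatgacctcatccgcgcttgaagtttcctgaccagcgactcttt
Dusp6: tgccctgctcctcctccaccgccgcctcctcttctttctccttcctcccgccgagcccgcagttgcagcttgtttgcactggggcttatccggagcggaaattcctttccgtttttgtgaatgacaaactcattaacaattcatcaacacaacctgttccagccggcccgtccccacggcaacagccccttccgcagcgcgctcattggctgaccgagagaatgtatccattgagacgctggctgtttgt

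Over the 250 bases before each start, both strands were searched for the full cyclic AMP response element TGACGTCA, its core TGACG (which lies inside the full element), the AP-1 element TGANTCA, the kappaB motif and the CArG box, the site of serum response factor. Dusp1 held 1 full element, 143 bases before the start, which 1.55% of 32851 promoters hold. Its core matches lay 191, 143 and 140 bases before the start, and those at 143 and 140 are the same full element read on each strand. Dusp5 held 2 CArG boxes in direct succession, a motif in 1.47% of promoters, and 1 core element 55 bases before the start. Dusp16 held 1 core element, 70 bases before the start, and core elements occur in 17.8% of promoters. None of the 8 windows held the AP-1 element or the kappaB motif, which 6.75% and 7.25% of promoters hold, and the windows of Dusp2, Dusp3, Dusp6, Dusp7 and Dusp10 held none of the 5 motifs. A match is a run of letters, not a site shown to be bound.

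**Figure D1:**
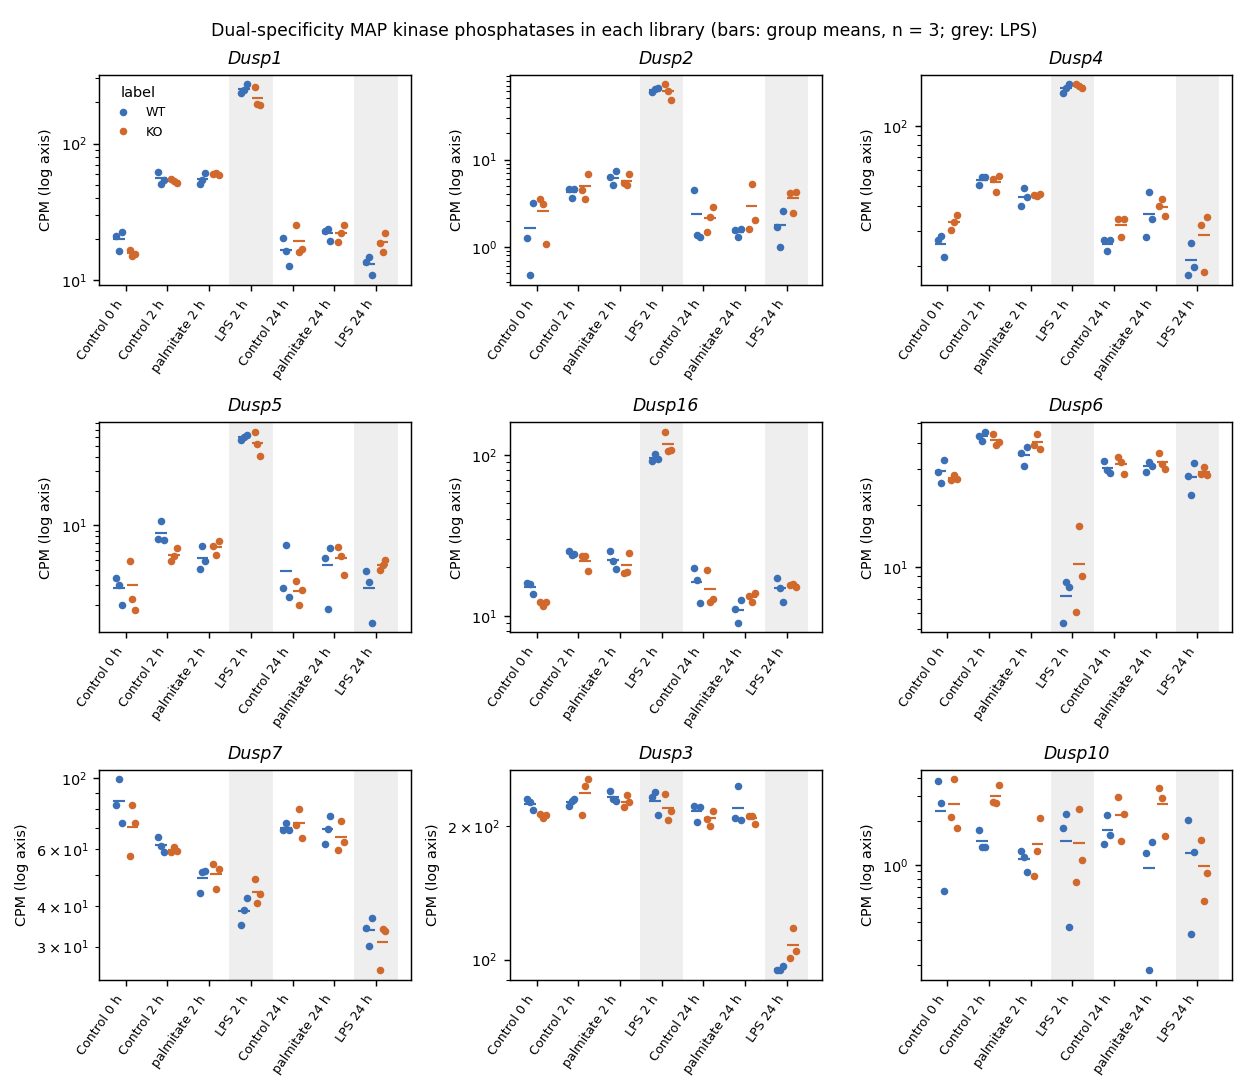
Level of each phosphatase gene in the 42 libraries, in CPM on a log axis, by condition and label (blue, WT; orange, KO). Points are libraries, bars are means of 3 and grey bands mark LPS. Dusp1, Dusp2, Dusp4, Dusp5 and Dusp16 peak at LPS 2 h, where Dusp6 is lowest, and Dusp3 drops at LPS 24 h.

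At Control 0 h in WT, Dusp3 and Dusp7 had the highest levels of the 9. As reads per kilobase of exon scaled to library size (RPKM), the level in WT Control 0 h was 47.9 ± 1.42 (SD, n = 3) for Dusp3 and 25.2 ± 3.97 for Dusp7. Dusp4 (9.41 ± 1.16), Dusp6 (9.28 ± 1.18) and Dusp1 (6.02 ± 0.954) followed, and the first pair differed by less than the spread. Dusp16 stood at 1.94 ± 0.165, above Dusp5 (1.13 ± 0.301), Dusp2 (0.817 ± 0.692) and Dusp10 (0.782 ± 0.522), which did not differ beyond their spread. At LPS 2 h in WT the order was led by Dusp1 (75.5 ± 6.07) and Dusp4 (56.2 ± 2.90), with Dusp3 at 48.6 ± 2.87, Dusp2 at 31.3 ± 1.85 and Dusp5 at 24.3 ± 1.30. Dusp16 (12.2 ± 0.584) and Dusp7 (11.6 ± 1.09) were then level within their spread, and Dusp6 (2.31 ± 0.527) and Dusp10 (0.484 ± 0.323) came last. At Control 2 h in WT, Dusp4 (19.6 ± 1.06), Dusp7 (18.5 ± 0.977) and Dusp1 (16.8 ± 1.63) followed Dusp3 (48.3 ± 0.919).

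The question of which phosphatases answered LPS at 2 h was put to each label apart. In WT, 5 of the 9 genes rose, against 14% of the 11624 genes tested, and 2 fell, against 9.10%. In KO, again 5 rose, against 14.7% of genes, and 2 fell, against 9.16%. The same genes moved in both. The median log2 fold change was 1.52 over the 9 genes and -0.01 over all genes in WT, and 1.59 and -0.01 in KO. In bulk RNA, fewer cells of a type and less RNA per cell cannot be told apart.

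Dusp1, whose product acts on p38 and JNK in the nucleus, stood at 61.5, 50.9 and 54.5 CPM in WT Control 2 h and at 233, 245 and 272 CPM in WT LPS 2 h. In KO it went from 54.6, 53.3 and 51.9 CPM to 258, 195 and 192 CPM. The groups did not overlap, and on the log2 scale it rose, by edgeR, by 2.17 (SE 0.12, adjusted p = 9.7e-22) in WT and 2.00 (SE 0.12, adjusted p = 4.26e-20) in KO. Dusp2, a nuclear phosphatase abundant in activated leukocytes, was low without LPS and had the largest fold of the 9. It rose from 4.64, 3.63 and 4.59 to 58.6, 64.0 and 65.7 CPM in WT, and from 4.52, 3.58 and 6.78 to 72.8, 60.7 and 47.3 CPM in KO. That is 14.6-fold in WT (log2 3.87, SE 0.29, adjusted p = 6.81e-16) and 12.0-fold in KO (log2 3.58, SE 0.29, adjusted p = 6.51e-15).

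Dusp4, a nuclear phosphatase, rose too. Its level was 50.5, 55.5 and 55.5 CPM in WT Control 2 h and 145, 155 and 161 CPM in WT LPS 2 h, and 54.4, 46.9 and 56.1 against 161.5, 158.5 and 155 CPM in KO. Its log2 change was 1.52 (SE 0.13, adjusted p = 1.66e-14) in WT and 1.59 (SE 0.13, adjusted p = 3.86e-15) in KO. Dusp5, which dephosphorylates ERK in the nucleus, rose from 7.54, 10.9 and 7.40 to 56.8, 60.4 and 63.2 CPM in WT. In KO it rose from 4.88, 5.36 and 6.27 to 67.5, 52.6 and 41.5 CPM. Every LPS library lay above every Control library, and its log2 change came to 2.80 (SE 0.25, adjusted p = 3.14e-13) in WT and 3.27 (SE 0.27, adjusted p = 1.68e-14) in KO.

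Dusp16, which acts mainly on JNK and p38, rose as well, while Dusp10 was not called. It stood at 25.3, 24.0 and 24.3 CPM in WT Control 2 h and at 91.5, 100.4 and 94.2 CPM in WT LPS 2 h (log2 fold change 1.96, SE 0.14, adjusted p = 4.81e-17). In KO it went from 23.7, 23.4 and 18.98 to 139, 105 and 108 CPM (log2 2.40, SE 0.14, adjusted p = 3.36e-20). Dusp10 was at 1.74, 1.32 and 1.33 CPM in WT Control 2 h and 1.79, 2.26 and 0.371 CPM in WT LPS 2 h, from 2 to 11 counts. In KO, Dusp10 was at 2.71, 2.68 and 3.56 CPM in Control 2 h and at 0.758, 2.43 and 1.08 CPM in LPS 2 h. These KO groups did not overlap, yet the log2 fold change of Dusp10, -0.97, had an adjusted p of 0.245 by edgeR. The interval of its log2 fold change ran from -1.27 to 1.18 in WT and from -2.10 to 0.16 in KO (95%). At this depth any value within these intervals is compatible with the counts, so the lack of a call does not show that Dusp10 was unchanged.

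Dusp6, a feedback inhibitor of ERK that is itself an ERK target gene, moved the other way from the nuclear group. It was at 43.3, 40.8 and 45.3 CPM in WT Control 2 h and at 5.36, 8.42 and 7.98 CPM in WT LPS 2 h. In KO the levels were 43.9, 38.8 and 40.5 against 6.07, 15.8 and 9.07 CPM, with library 2 of LPS above the others. Its log2 change was -2.52 (SE 0.17, adjusted p = 2.63e-17) in WT and -1.91 (SE 0.17, adjusted p = 8.45e-14) in KO. The LPS 2 h libraries held the lowest Dusp6 levels of all 42, between 5.36 and 15.8 CPM, and the next lowest library stood at 22.3 CPM.

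Dusp7, the other cytoplasmic ERK phosphatase, fell less. It was at 65.5, 61.5 and 59.0 CPM in WT Control 2 h and at 35.02, 39 and 42.3 CPM in WT LPS 2 h, and at 58.7, 61.2 and 59.5 against 48.5, 40.9 and 43.6 CPM in KO. Its log2 change was -0.66 (SE 0.12, adjusted p = 3.72e-05) in WT and -0.45 (SE 0.12, adjusted p = 0.00537) in KO, again without overlap. Dusp3 did not pass the test, with a log2 fold change of 0.00 (95% interval -0.13 to 0.14) in WT and -0.12 (-0.25 to 0.01) in KO. Without library 1 of KO Control 2 h, the KO value of Dusp3 was -0.21 (adjusted p = 0.0309, edgeR).

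**Figure D2:**
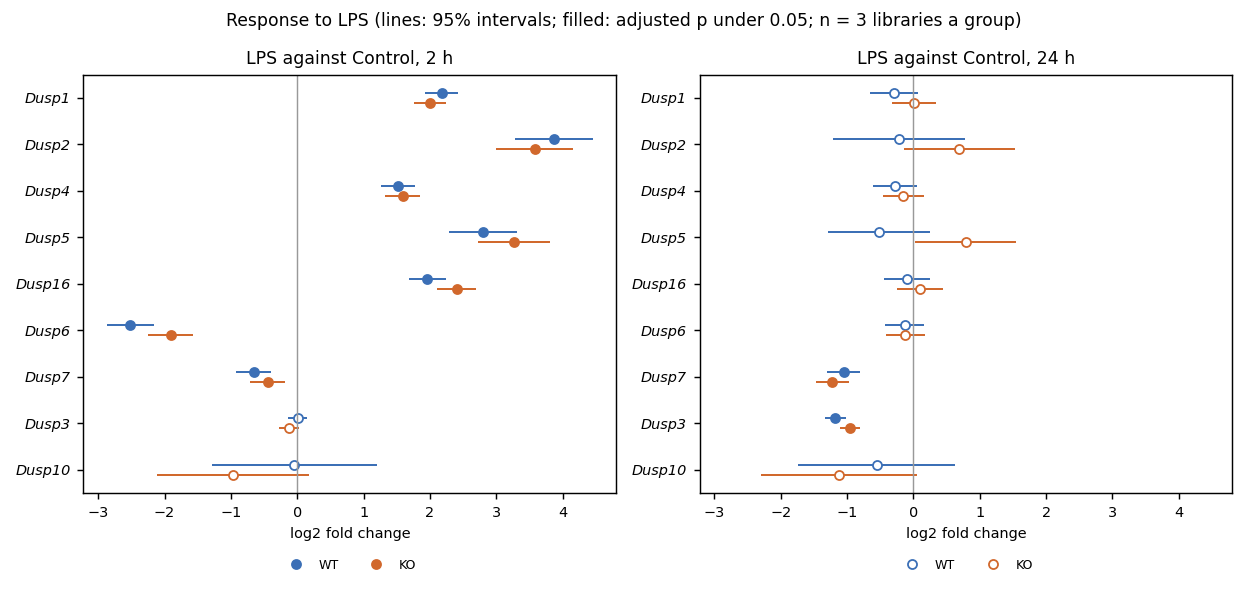
Log2 fold change of each phosphatase gene for LPS against Control at 2 h (left) and 24 h (right), in WT (blue) and KO (orange), from 3 libraries a group. Lines are 95% intervals and filled points have an adjusted p under 0.05. At 2 h 5 genes are higher and 2 lower in both labels, and at 24 h the filled points are Dusp3 and Dusp7.

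Summed per exon length, the nuclear group grew from a minor to the major share of the family with LPS. Dusp1, Dusp2, Dusp4 and Dusp5 together stood at 42.1 ± 0.254 (SD, n = 3) in WT Control 2 h and at 187 ± 11.9 in WT LPS 2 h, which is 33.3% and 71.3% of the sum over the 9 genes. In KO the group went from 39.9 ± 2.52 to 175 ± 23.4, or from 31.8% to 68.8%. Dusp6 and Dusp7 together went from 32.2 ± 1.02 to 13.9 ± 1.55 in WT, which is 25.5% and 5.27% of the sum, and from 30.9 ± 0.517 to 16.5 ± 0.668 in KO, which is 24.7% and 6.56%. The sum over the 9 genes rose from 126 ± 0.819 to 262 ± 11.6 in WT and from 125 ± 4.84 to 253.5 ± 28.4 in KO. At 24 h of LPS it was 55.2 ± 1.06 in WT and 63.5 ± 3.08 in KO, against 96.5 ± 3.77 and 98.5 ± 3.24 in Control 24 h.

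**Figure D3:**
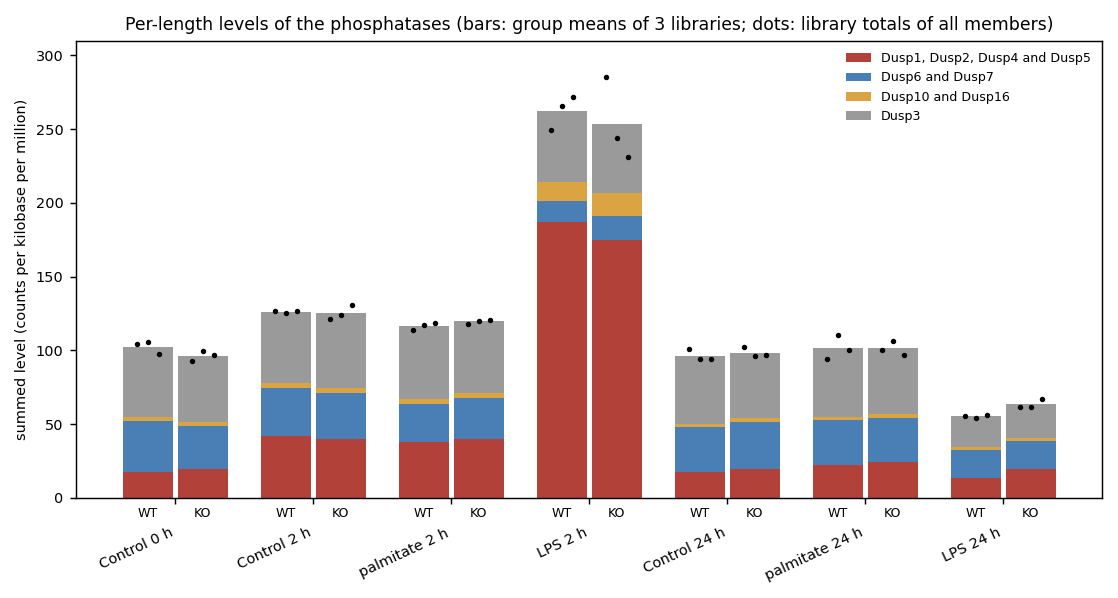
Summed level of the 9 phosphatase genes in RPKM, by condition and label, stacked by class. Bars are means of 3 libraries and dots are the libraries' sums over all 9 genes. The nuclear group (red) rises from 42.1 to 187 with LPS at 2 h in WT, and all libraries of LPS 24 h have the lowest sums.

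At 24 h the rises seen at 2 h were no longer called, and the share of the 9 genes that fell was near that of all genes. None of the 9 genes was higher with LPS, in a comparison where 19.6% of genes rose in WT and 19.9% in KO, and 2 were lower, where 19.9% of genes fell in WT and 21% in KO. These were Dusp3, the atypical phosphatase, and Dusp7. The median log2 fold change was -0.30 over the 9 genes and -0.01 over all genes in WT, and -0.12 and -0.01 in KO.

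Dusp3 stood at 222, 204 and 221 CPM in WT Control 24 h and at 94.5, 94.5 and 97.0 CPM in WT LPS 24 h. In KO it was at 207, 200.4 and 217 CPM in Control and at 101, 118 and 104 CPM in LPS. The LPS 24 h libraries were the only ones of the 42 under 200 CPM, and its log2 change was -1.18 (SE 0.07, adjusted p = 9.91e-20) in WT and -0.96 (SE 0.07, adjusted p = 1.34e-16) in KO. Dusp7 went from 69.0, 72.2 and 69.0 to 34.4, 30.1 and 36.9 CPM in WT (log2 -1.05, SE 0.12, adjusted p = 2.78e-10). In KO it went from 71.4, 80.1 and 65.2 to 25.3, 34.1 and 33.6 CPM (log2 -1.22, SE 0.12, adjusted p = 3.94e-12).

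The genes that had risen at 2 h no longer passed the test. Dusp1 was at 13.5, 14.9 and 10.9 CPM in WT LPS 24 h against 20.5, 16.4 and 12.8 CPM in WT Control 24 h, and Dusp16 at 17.3, 14.9 and 12.2 against 19.9, 16.6 and 12.1 CPM. In KO, Dusp5 was at 4.02, 4.48 and 4.97 CPM in LPS 24 h, above the 3.22, 2.00 and 2.69 CPM of Control 24 h, and Dusp2 at 4.17, 2.42 and 4.24 against 1.49, 2.18 and 2.83 CPM, with log2 values of 0.78 and 0.69. Dusp6 was at 27.7, 22.3 and 31.8 CPM in WT LPS 24 h, against 32.5, 29.4 and 28.5 CPM in Control. The log2 fold changes of the 7 genes that did not pass lay between -0.56 (Dusp10) and -0.09 (Dusp16) in WT and between -1.12 (Dusp10) and 0.78 (Dusp5, adjusted p = 0.0968) in KO. Dusp4 in WT had a log2 fold change of -0.28, which was -0.45 (adjusted p = 0.0429) without library 2 of WT LPS 24 h.

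The difference between the time points was itself tested, over both labels. The response at 24 h was lower than that at 2 h for 7 of the 9 genes, where this held for 24.5% of genes, and higher for 1, where it held for 21.7%. The log2 difference was lowest for Dusp2 (-3.49, SE 0.41), Dusp5 (-2.90, SE 0.34), Dusp1 (-2.23, SE 0.15), Dusp16 (-2.18, SE 0.16) and Dusp4 (-1.77, SE 0.14). For Dusp6 the difference was 2.08 (SE 0.16, adjusted p = 5.06e-16). Dusp10 had a difference of -0.33 (SE 0.60) and did not pass. Over the leave-one-out fits, each of these calls was kept in all 24.

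Sums of other cells' markers, over LPS libraries of both times, overlapped those in Control. Granulocyte precursor markers, a list that holds the LPS-responsive Lcn2, S100a8 and S100a9, summed to 50.1 to 451 CPM in WT LPS against 20.7 to 65.9 CPM in WT Control. In KO the sums were 137 to 399 against 71.3 to 219 CPM. Fibroblast markers summed to 0.171 to 2.48 CPM in WT LPS against 0.529 to 58.7 CPM in WT Control, and to 0.56 to 175 against 39.5 to 133 CPM in KO. Their part in the results was not tested.

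Most of these genes also changed within untreated culture. Between Control 0 h and Control 2 h, over both labels, 6 of the 9 genes rose, against 9.35% of genes, and 1 fell, against 7.36%. Dusp1 went from 20.96, 16.4 and 22.5 CPM at 0 h to 61.5, 50.9 and 54.5 CPM at 2 h in WT, and from 16.7, 15.1 and 15.4 to 54.6, 53.3 and 51.9 CPM in KO. Its log2 fold change of 1.62 (SE 0.10, adjusted p = 1.77e-18) was the largest of the 9.

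Dusp5 (log2 1.28, SE 0.25), Dusp2 (1.13, SE 0.29), Dusp4 (0.87, SE 0.10) and Dusp16 (0.79, SE 0.11) rose as well. Dusp6, which LPS lowered at the same time, rose too, from 28.7, 25.5 and 32.9 to 43.3, 40.8 and 45.3 CPM in WT (log2 over both labels 0.58, SE 0.10, adjusted p = 5.17e-06). Dusp7 fell by 0.35 on the log2 scale (SE 0.08, adjusted p = 0.000915). Dusp3 had a value of 0.09, which was 0.13 (adjusted p = 0.0473) without library 1 of KO Control 2 h. At Control 24 h against 0 h, 0 of the 9 genes were called by edgeR, 0 had an unadjusted p under 0.05 and DESeq2 called 0, while 16.5% of all genes were called. Of the 11624 genes tested, 3264 had an unadjusted p under 0.05. The comparisons of LPS 2 h with Control 2 h and of Control 2 h with Control 0 h share the Control 2 h libraries.

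**Figure D4:**
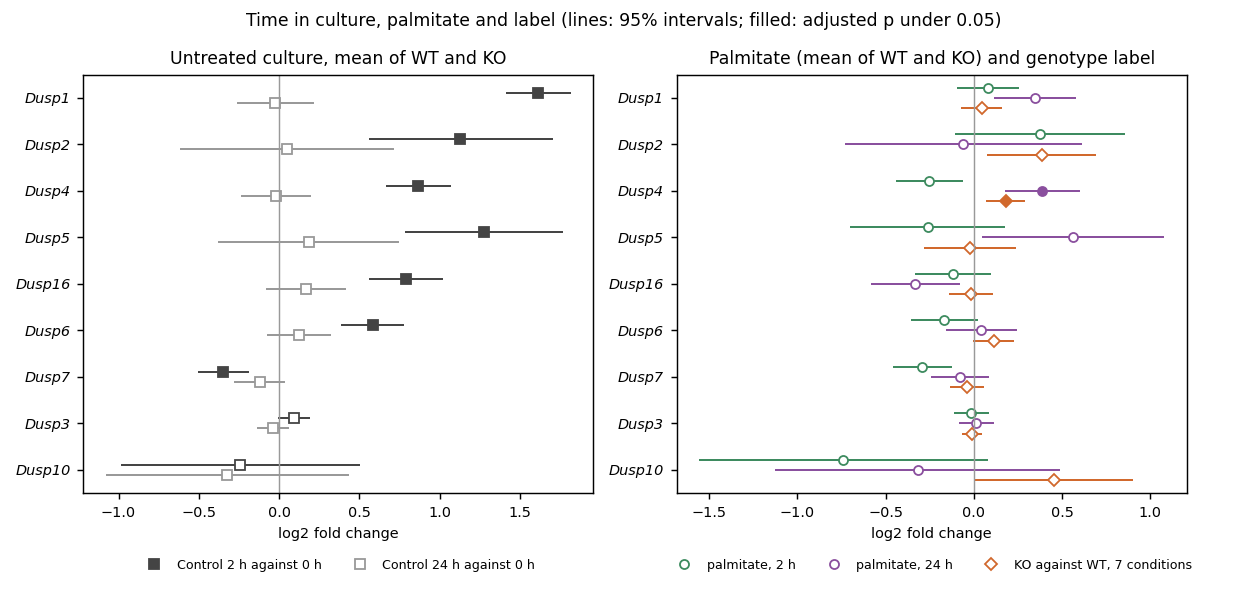
Log2 fold change of each phosphatase gene for Control 2 h and 24 h against Control 0 h (left) and for palmitate at 2 h and 24 h and KO against WT over 7 conditions (right). Lines are 95% intervals and filled points have an adjusted p under 0.05. Dusp1 is highest at Control 2 h, at 1.62, and Dusp4 holds the filled points on the right.

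Palmitate, a saturated fatty acid abundant in dietary fat, was compared with the Control of the same time over both labels. The labels do not say whether Control cells received the carrier of palmitate. At 2 h edgeR called 0 of the 9 genes, where 0.542% of all genes were called, and DESeq2 called 0. By edgeR, 917 of the 11624 genes tested and 2 of the 9 had an unadjusted p under 0.05. These were Dusp7 and Dusp4. Dusp7 was at 43.9, 51.3 and 51.4 CPM in WT palmitate 2 h and 54.2, 45.2 and 52.1 CPM in KO palmitate 2 h, against 59.0 to 65.5 CPM in the Control 2 h of WT and 58.7 to 61.2 CPM in that of KO. Its log2 fold change was -0.29 (95% interval -0.45 to -0.13, adjusted p = 0.126), and that of Dusp4 was -0.25 (-0.44 to -0.07, adjusted p = 0.43). The adjusted p of Dusp7 was 0.022 with all genes that had a count and 0.0134 in a fit of the 12 libraries compared.

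At 24 h of palmitate, Dusp4 was the 1 gene higher, where 1.62% of all genes were higher, and none was lower, where 0.955% were. Dusp4 was at 27.99, 46.7 and 34.2 CPM in WT palmitate 24 h against 26.9, 23.8 and 26.9 CPM in Control, and at 39.6, 43.05 and 35.4 against 34.2, 28.03 and 34.2 CPM in KO. Its log2 change was 0.39 (SE 0.11, adjusted p = 0.0292). The call was lost without library 2 of WT palmitate (adjusted p = 0.186), of KO palmitate (0.0864), of WT Control (0.094) or of KO Control (0.103). Dusp1 had a value of 0.35 (SE 0.12, adjusted p = 0.11), which passed without library 1 of WT Control (0.0477) or of KO Control (0.0211). Fibroblast markers summed to 7.32, 1.63 and 0 CPM in KO palmitate 24 h against 133, 47.9 and 39.5 CPM in KO Control 24 h, and to 0.346, 10.1 and 1.08 against 2.8, 2.74 and 45.1 CPM in WT. Their part in the result was not tested.

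Of the 9 genes, edgeR called 0 between the labels in each of the 7 conditions. Of all genes, edgeR called 12.5% at Control 0 h, 0.490% at Control 2 h, 0.146% at palmitate 2 h, 0.465% at LPS 2 h, 0.120% at Control 24 h, 0.0688% at palmitate 24 h and 0.146% at LPS 24 h. The count at Control 0 h was 1448 genes and fell to 730 without library 3 of KO. At Control 2 h it was 57 and fell to 11 without library 2 of KO, at palmitate 2 h it was 17 and fell to 5 without library 2 of WT, and at palmitate 24 h it was 8 and reached 24 without library 2 of WT. DESeq2 also called none of the 9, and an unadjusted p under 0.05 was found for 0 (palmitate 2 h) to 4 (LPS 24 h) of them. Of the 11624 genes tested, 1032 had such a p at palmitate 2 h and 1055 at LPS 24 h. At LPS 24 h, Dusp1 was at 13.5, 14.9 and 10.9 CPM in WT and at 18.8, 16.04 and 22.1 CPM in KO. These did not overlap, yet the log2 fold change of 0.55 (95% interval 0.22 to 0.88) had an adjusted p of 0.199 by edgeR. With all genes that had a count, the adjusted p was 0.0304 for Dusp1 at LPS 24 h and 0.045 for Dusp4 at Control 0 h (log2 0.55 and 0.37). Dusp4 at LPS 24 h passed without library 2 of KO LPS 24 h (log2 0.64, adjusted p = 0.0411), and Dusp7 at Control 0 h passed without library 3 of WT (-0.36, adjusted p = 0.0486) or library 2 of KO (-0.37, adjusted p = 0.0354).

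Over the mean of the 7 conditions, Dusp4 was the 1 gene of the 9 called, higher in KO by 0.18 on the log2 scale (SE 0.05, adjusted p = 0.0203), where 11.4% of all genes were called. Its mean level was 25.8 ± 3.17 CPM (SD, n = 3) in WT and 33.1 ± 2.78 CPM in KO at Control 0 h, and 53.8 ± 2.92 against 52.5 ± 4.92 CPM at Control 2 h. Without Control 0 h the value was 0.15 (adjusted p = 0.132), and without the 5 libraries over 100 CPM of fibroblast markers it was 0.16 (adjusted p = 0.0987). Of all genes, 583 and 828 were called in these fits, against 1320 in the main fit. Dusp2, at 0.38 (SE 0.15, adjusted p = 0.102), passed without library 3 of WT Control 0 h (0.53, adjusted p = 0.0204) or library 1 of WT Control 24 h (0.47, adjusted p = 0.0349). Since Irf5 did not check the labels, these are differences between labels.

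Whether the label altered a response was tested by interaction. For LPS at 2 h, edgeR called 0 of the 9 genes and 0% of all genes, and DESeq2 called 0 of the 9. By edgeR, 810 of the 11624 genes tested and 2 of the 9 had an unadjusted p under 0.05. These 2 were Dusp6, where the response differed by 0.61 (95% interval 0.11 to 1.11) between KO and WT, and Dusp16, at 0.44 (0.06 to 0.83). With 1 library left out, the value ran from 0.14 to 0.79 for Dusp6 and from 0.30 to 0.51 for Dusp16. Library 2 of KO LPS 2 h, the highest of its group for Dusp6 at 15.8 CPM, held 152 CPM of fibroblast markers, whose part was not tested. At 24 h of LPS 0 of the 9 were called, where 0.00860% of all genes were. An unadjusted p under 0.05 was found for 625 of all genes tested. It was found for 2 of the 9, namely Dusp5 (1.30, interval 0.24 to 2.37) and Dusp3 (0.22, interval 0.03 to 0.41). For palmitate 0 of the 9 and 0% of all genes were called at 2 h and at 24 h. Of the 9, 1 (Dusp5) and 0 had an unadjusted p under 0.05, against 486 and 411 of all genes tested. DESeq2 called 0 of the 9 in each of these.

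Other genes of the pathway were counted where edgeR called them alike in both labels. At LPS 2 h, 11.2% of all genes tested rose and 4.88% fell in both. Of the 11 other dual-specificity phosphatases tested at LPS 2 h, 1 rose and 1 fell in both labels. These were Dusp11, which acts on RNA (0.38 in WT and 0.36 in KO on the log2 scale), and Ssh2, a cofilin phosphatase (-0.70 and -0.72). Of 9 MAP kinases, 2 rose in both and none fell in both, Mapk6 (0.91 and 0.96) and Mapk8, which encodes JNK1 (0.73 and 0.62). Of 7 MAP kinase kinases, 2 rose in both, Map2k3 (0.49 and 0.38), an activator of p38, and Map2k4 (0.45 and 0.34), an activator of JNK.

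Of 16 MAP kinase kinase kinases at LPS 2 h, 5 rose and 2 fell in both labels, where 11.2% of all genes rose and 4.88% fell. Map3k8, which couples TLR4 to ERK, rose by 1.67 in WT and 1.46 in KO, and Map3k6 by 1.28 and 2.08, while Map3k1 (-0.53 and -0.68) and Map3k14 (-0.51 and -0.42) fell. Of 10 kinases downstream, 3 rose and 1 fell in both. Mapkapk2, the p38 substrate that stabilises cytokine messages, went from a mean of 270.5 to 785 CPM in WT and from 239.8 to 915 CPM in KO (log2 1.54 and 1.93). Of 4 Sprouty and Spred genes tested, inhibitors of the ERK branch, 2 rose in both, Spred1 (1.59 and 1.80) and Spred2 (0.52 and 0.81). Of 6 other phosphatases of MAP kinases, 3 rose in both, among them Ppp2ca (0.47 and 0.54) and Ppm1b (0.59 and 0.51).

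At 24 h of LPS, 15.5% of all genes tested rose and 16% fell in both labels. Of the 11 other dual-specificity phosphatases, 3 rose and 1 fell in both labels, with Ssh3 (0.50 and 0.54) and Dusp28 (1.06 and 1.32) higher and Dusp22 (-0.59 and -0.75) lower. Mapk14, which encodes p38 alpha, rose (0.50 and 0.38), and Mapk6 (-0.68 and -0.49) and Mapk3 (-0.26 and -0.28) fell. Map2k1 (0.54 and 0.61) and Map2k2 (0.39 and 0.32), the activators of ERK, rose and Map2k3 (-0.55 and -0.61) fell. Map3k8 was the 1 kinase of its level that stayed higher in both (1.04 and 0.55), while 5 fell, among them Map3k20 (-0.72 and -0.76). Mapkapk2 (0.69 and 0.91) and Spred1 (0.35 and 0.29) also stayed higher, and Rps6ka2 (-1.32 and -1.16) and Spry2 (-1.05 and -1.36) were lower. At palmitate 2 h and 24 h, 0 genes of these 7 lists were called in the same fit. Few of all genes were called there: 0.542% at 2 h, and 1.62% higher and 0.955% lower at 24 h.

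The patterns over the 14 group means were compared by Pearson correlation of log2 CPM, as a description, since the groups share conditions. The 5 genes that rose at LPS 2 h had correlations of 0.932 (Dusp4 and Dusp16) to 0.972 (Dusp2 and Dusp16) with each other. Dusp6 had correlations of -0.646 (with Dusp1) to -0.815 (with Dusp16) with them, and Dusp3 was most like Dusp7 (0.673). Of 9097 other genes searched, Dusp1 was most like Zfp36 (0.991), which encodes an RNA-binding protein that shortens the life of cytokine messages, and P2ry2 (0.99). Dusp16 was most like Rel (0.99), a subunit of NF-kappaB, and Gna13 (0.987). Dusp2 was most like Dyrk2 (0.99) and Mdm2 (0.985), Dusp5 most like Dyrk2 (0.984) and Phlda1 (0.979), and Dusp4 most like Phldb1 (0.982) and Zhx2 (0.98).

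Dusp3 was most like Reps2 (0.993) and Atp6v0d2 (0.987), a subunit of the proton pump of lysosomes. Dusp6 was most like Hhex (0.962) and Cir1 (0.956), and Dusp7 like Hist1h2ae (0.959) and Lrrc20 (0.956). For Dusp10 the highest values were lower, 0.786 with Pds5b and 0.76 with G2e3, at 1 to 23 counts a library.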

How the data were processed

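Total RNA was turned into stranded, ribodepleted libraries and sequenced in paired ends, and reads were aligned with STAR 2.7.3a to mm10. The submitters' processing notes also name fastp 0.19.11 and mm9, with no role given. The annotation release and strand setting are not given in the sources used here. The authors deposited raw counts per gene, with no normalisation. Columns name a group and no replicate, 0 columns were left out, and the labels do not say that libraries of a group came from separate mice or cultures, so p-values measure a spread that may be technical. No pair of replicates was alike within sampling noise (chi-square per degree of freedom 1.93 to 9.32 over 42 pairs).

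In R 4.3.3, edgeR 4.0.16 fitted 1 mean per group to all 42 libraries (filterByExpr, TMM, quasi-likelihood F test, 11624 genes tested). P-values were adjusted by Benjamini-Hochberg over all genes tested, with calls at an adjusted p under 0.05. The SE is the log2 fold change divided by the square root of F. CPM are TMM-scaled, and levels between genes use exon length from GENCODE M21, which the reference held on GRCm38. Of 37310 identifiers, 32620 had a symbol. The members, lists and tests were chosen with earlier results of these data known. All 9 members were tested in every comparison, and each member called in a comparison was named with its value. Members that were not called were named in some comparisons only. From each pathway list, at most 2 genes per direction and time were named, those with the smallest adjusted p in WT among genes called alike in both labels with a mean of at least 1 CPM. Likeness used genes of at least 5 CPM and a prior count of 2. The tests were tested on simulated data. Alternatives were RLE, all genes with a count, the compared libraries alone, DESeq2 1.42.0, plain CPM and leaving out each library.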

Additional observations from a re-analysis of the deposited data

Results flagged for a closer look

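The response to LPS differed between 2 h and 24 h, averaged over both labels, for 8 of the 9 genes by the test of the difference itself (edgeR, adjusted p from 2.72e-18 to 9.65e-05). The log2 difference, 24 h minus 2 h, was -2.23 for Dusp1, -3.49 for Dusp2, -1.77 for Dusp4, -2.90 for Dusp5 and -2.18 for Dusp16, the genes that rose at 2 h. It was -1.01 for Dusp3, which was lower at 24 h alone, and -0.58 for Dusp7, which was lower at both times. For Dusp6 it was 2.08, as its fall at 2 h was not seen at 24 h. No interaction with the label was called for any of the 9 genes by edgeR or DESeq2. Groups held 3 libraries, too few to test a single library against its group.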

How the results depend on the processing

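No paired analysis was possible because the columns of the count table carry no replicate numbers. Under RLE and DESeq2 all 189 values (9 genes in 21 comparisons) kept their side of the threshold, and none was reversed under any alternative run. With all genes that had a count, the number of the 9 called went from 0 to 1 for palmitate 2 h, KO against WT at Control 0 h and KO against WT at LPS 24 h, and from 1 to 2 for palmitate 24 h and for KO against WT over 7 conditions. In a fit of only the libraries compared it went from 0 to 1 for palmitate 2 h. It was 0 for KO against WT over the 6 conditions without Control 0 h, and 0 without the libraries over 100 CPM of fibroblast markers, both chosen after seeing the data. Leaving out each library in turn gave 0 to 2 called genes for palmitate 24 h, 0 to 1 for KO against WT at Control 0 h and at LPS 24 h, and 1 to 2 for KO against WT over 7 conditions. Leaving out 1 library moved the count over all genes by more than 1.5 times for palmitate 2 h (63, down to 28 without library 3 of KO Control 2 h), the LPS interactions (0 to 3 at 2 h and 0 to 2 at 24 h) and KO against WT in each condition but LPS 2 h (among them 14 down to 7 at Control 24 h and 17 to between 9 and 27 at LPS 24 h). Of 2052 values of the 9 genes with 1 library left out, 4 lost and 10 gained a call. Plain CPM moved 18 of 126 mean levels by more than 1 SD. Over all genes, calls differed by more than 1.5 times with all counted genes for the interactions (0 against 43 and 1 against 26 for LPS, 0 against 16 and 0 against 9 for palmitate), palmitate 2 h (63 against 110) and KO against WT at Control 2 h (57 against 176), palmitate 2 h (17 against 130), LPS 2 h (54 against 190), Control 24 h (14 against 55), palmitate 24 h (8 against 75) and LPS 24 h (17 against 112). With only the libraries compared these were 120 for palmitate 2 h, and 235, 96, 23, 52, 20 and 9 for KO against WT in that order, with 0 for the LPS interaction at 24 h. DESeq2 gave 1 and 2 for the LPS interactions at 2 h and 24 h, and 29, 15 and 28 for KO against WT at palmitate 2 h, palmitate 24 h and LPS 24 h. KO against WT over 7 conditions called 1320 genes in the main fit and 583 without Control 0 h. It called 828 without the libraries over 100 CPM of fibroblast markers. Depth limited Dusp10, at 1 to 23 counts a library, and the cause of these shifts was not tested.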
